A study of Arabidopsis thaliana with 21 samples.

Results

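CHIL (AT5G05270) and UGT84A1 (AT4G15480) are 2 Arabidopsis thaliana genes of phenylpropanoid metabolism. They are 2 of the 13513 probe sets that the array annotation ties to a single gene, among 22810 probe sets in all, and each is measured by 1 probe set. Both were chosen from their measured signals in these same roots, which were very low on soil and high on plates. Their levels and differences are therefore given as a description, and no test is applied to them.

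Phenylpropanoid metabolism starts from phenylalanine and branches into flavonoids, hydroxycinnamate esters, coumarins and lignin. Chalcone synthase and chalcone isomerase open the flavonoid branch. CHIL has the chalcone isomerase fold without that enzyme's activity, and it raises flavonoid output by assisting chalcone synthase. UGT84A1 is a UDP-glucose-dependent glucosyltransferase that joins glucose to hydroxycinnamic acids such as 4-coumarate and sinapate as an ester. Flavonol synthesis in Arabidopsis seedlings depends on light and on MYB transcription factors of the flavonol group.

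RNA from whole roots of the Col-0 accession was hybridised to ATH1 arrays, with 7 groups of 3 arrays. ATGE_3 and ATGE_9 grew on soil at 23 °C, with 65% relative humidity and continuous light, and the labels note soil in the ATGE_3 tissue. ATGE_94 and ATGE_98 were grown on 0.5x GM medium in continuous light at 20 °C, and 5% sucrose was added to that medium for ATGE_95 and ATGE_99. ATGE_93 was grown on 1x MS medium with 1% sucrose in long days at 22 °C. ATGE_94 and ATGE_95 are the earlier plate harvests, likened in the labels to 7-day-old plants, ATGE_98 and ATGE_99 are the later ones, and ATGE_3 and ATGE_9 are the earlier and later soil harvests. This order of ATGE_3, ATGE_9, ATGE_98 and ATGE_99 follows what is known of the study's design and is not in the labels, which give these groups no age, and every comparison between harvests rests on it. No mutant, transgene or other treatment enters these groups. Substrate, temperature, medium and time of harvest change together between soil and plates, and for ATGE_93 day length too, so they cannot be told apart. ATGE_93 differs from the later GM group with sucrose in medium, sucrose, temperature and day length together, and the labels give it no age. The labels do not say whether the 3 arrays of a group came from separate plant cultures, so p-values measure the spread between these arrays, which may be technical.

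Values are MAS5 signals on a linear scale, which the authors scaled to a trimmed mean of 100 on each array. The 40th percentile of an array's signals, between 22.9 and 28.04, was used as the line below which a probe set was called dim. The number of arrays limits the precision, and signals of different probe sets are not compared with each other. Within-group correlations of log2 signal lay between 0.949 and 0.967.

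CHIL was dim on every soil array and well above the dim line on every plate array. In ATGE_3 its signals were 12.6, 6.1 and 10.5, and in ATGE_9 they were 2.6, 2.6 and 10.6. On plates without added sucrose they were 447.2, 508.1 and 555.6 in ATGE_94, and 470.3, 484.5 and 460.9 in ATGE_98. On plates with 5% sucrose they were 427.4, 412.9 and 397.0 in ATGE_95, and 324.5, 357.2 and 317.5 in ATGE_99. All 15 plate arrays lay above the dim line and all 6 soil arrays below it, and the soil and plate ranges did not come near each other. In ATGE_93, on MS medium, the signals were 459.6, 486.4 and 522.9. The lowest plate array stood 11.3 times above its own array's 40th percentile, and the highest soil array at 0.490 of its own.

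UGT84A1 was divided between soil and plates in the same way. In ATGE_3 its signals were 0.42, 0.53 and 1.35, and in ATGE_9 they were 0.54, 0.74 and 1.12. On GM without sucrose they were 113.7, 107.5 and 93.4 in ATGE_94, and 83.9, 86.1 and 77.9 in ATGE_98. With sucrose they were 105.7, 88.5 and 96.4 in ATGE_95, and 65.0, 74.3 and 69.9 in ATGE_99. Here too the 6 soil arrays were all dim and the 15 plate arrays were all above the line. In ATGE_93 the signals were 59.0, 60.1 and 63.3, the lowest of the plate groups. The lowest plate array was 2.33 times its 40th percentile, so UGT84A1 had less room above the dim line than CHIL.

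**Figure D1:**
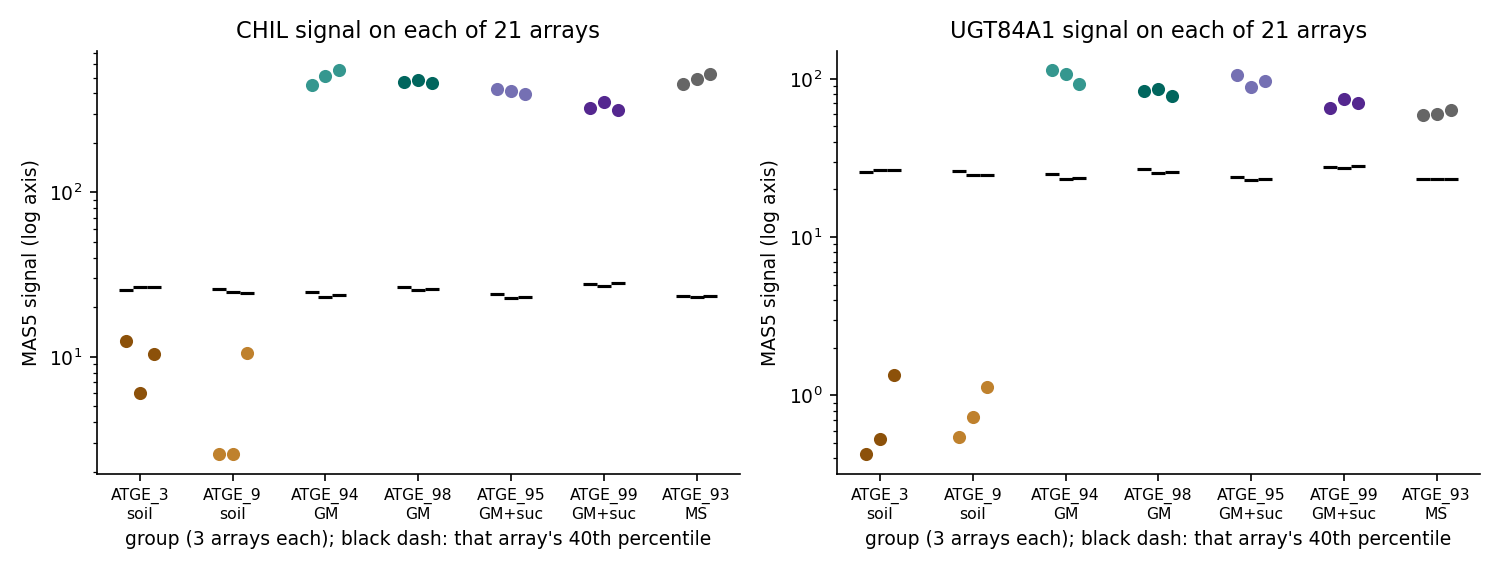
MAS5 signal (log axis) of CHIL and UGT84A1 on each of the 21 arrays, by group; coloured points are arrays and black dashes are each array's own 40th percentile. The 6 soil arrays lie below the dashes and the 15 plate arrays above them for both genes, and GM+suc means GM with 5% sucrose.

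Because the soil signals are dim, the folds between plates and soil are lower bounds, with each soil array set to its 40th percentile. CHIL was at least 19.1-fold higher in ATGE_94 than in ATGE_3, at least 18.8-fold higher in ATGE_98 than in ATGE_9, and at least 19.5-fold higher in ATGE_93 than in ATGE_9. UGT84A1 was at least 3.98-fold, 3.28-fold and 2.42-fold higher in the same comparisons. The bounds depend on how far each probe set stands above the line on plates, and no order of the genes' true folds is drawn from them. No fold is given between the soil groups, where both genes were dim. Being dim on all 6 soil arrays and above the line on all 15 plate arrays was uncommon, at 217 of 22746 non-control probe sets (0.954%). Since this pattern is what the genes were chosen for, nothing is read from that share. In whole roots, fewer cells expressing a gene and less RNA per cell cannot be told apart.

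Other measures also moved between soil and plates. The summed signal of the 6 named shoot-tissue markers, out of 38 listed, ranged from 138 to 161 on the soil arrays and from 352 to 731 on the plate arrays. Of these 6 markers, 4 were dim on all arrays of ATGE_3 and 3 on all arrays of ATGE_9, against 1 each in ATGE_93 and ATGE_95 and 0 in ATGE_94, ATGE_98 and ATGE_99. LHCB4.1, a light-harvesting protein, was not dim on soil, with means of 46.1 in ATGE_3 and 59.7 in ATGE_9 against 98.9 to 287 in the plate groups. Among plate groups the sums were 609 ± 35.3 in ATGE_94, 374 ± 25.1 in ATGE_95, 700 ± 27.9 in ATGE_98, 601 ± 29.5 in ATGE_99 and 384 ± 16.1 in ATGE_93 (SD, n = 3). The sum and the CHIL signal were both lower with sucrose at each harvest, but the sum was lower and the CHIL signal higher in ATGE_95 and ATGE_93 than in ATGE_99. Of the 4 named root markers, out of 20 listed, none was dim on all arrays of a group, and their sums of 2519 to 5583 were mostly PYK10, with group means of 2399 to 3362. The other root markers had lower means on soil than in any plate group. EXPA7 and EXPA18, expansins of root hairs, had 38.6 and 66.2 in ATGE_3 and 32.1 each in ATGE_9, against 87.9 to 331 and 111 to 476 on plates. AT4G26010, a peroxidase on the root list, had 301 and 99.3 on soil against 452 to 1219 on plates. The ratio of the 3′ to the 5′ GAPDH control probe sets, a sign of RNA quality, had a mean of 1.38 in ATGE_3, 1.17 in ATGE_9 and 0.977 to 1.24 in the plate groups. The part of shoot tissue, root-hair cells or RNA quality in the soil-plate difference was not tested.

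Among the plate groups the members varied by less than 2-fold, from 317 to 556 for CHIL, a ratio of 1.75, and from 59.0 to 114 for UGT84A1, a ratio of 1.93. In order of the mean, CHIL was 504 ± 54.3 in ATGE_94, 490 ± 31.8 in ATGE_93 and 472 ± 11.9 in ATGE_98 (SD, n = 3), and the arrays of these neighbours overlapped. ATGE_95 at 412 ± 15.2 and ATGE_99 at 333 ± 21.2 followed, with no overlap between ATGE_98, ATGE_95 and ATGE_99. The 2 groups with 5% sucrose thus held the lowest plate values of CHIL. For UGT84A1 the order was ATGE_94 at 105 ± 10.4, ATGE_95 at 96.9 ± 8.62, ATGE_98 at 82.6 ± 4.24, ATGE_99 at 69.8 ± 4.65 and ATGE_93 at 60.8 ± 2.23. Only ATGE_94 and ATGE_95 overlapped among these neighbours, so for UGT84A1 the earlier harvests stood above the later ones with either medium. ATGE_93 shared the top of the order for CHIL and had the lowest plate mean for UGT84A1, though its order against ATGE_99 depended on the scaling.

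**Figure D2:**
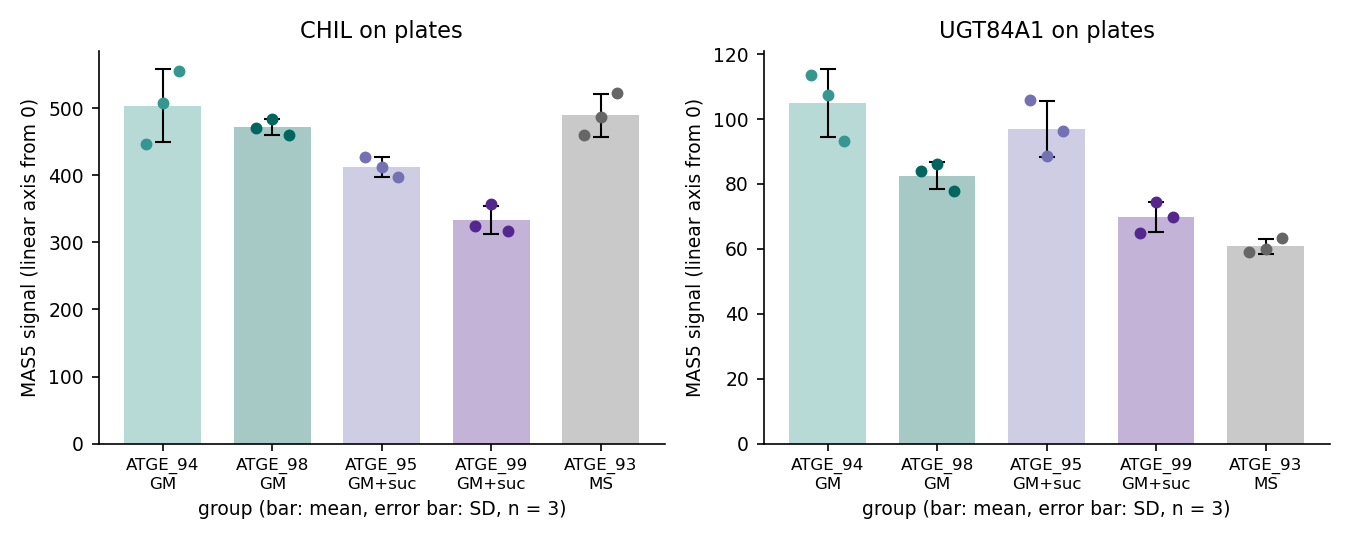
MAS5 signal (linear axis from 0) of CHIL and UGT84A1 in the 5 plate groups; bars are means, error bars SD and points the 3 arrays of each group. CHIL is lowest in the GM groups with 5% sucrose, and UGT84A1 is lowest in the later GM group with sucrose and in the MS group.

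The next differences are on the log2 scale, with the standard error taken from the arrays of the groups compared. The pooled error of the fit over all 21 arrays, 0.327 for CHIL and 0.294 for UGT84A1, is inflated by the scatter of the dim soil arrays and is not used here. With 5% sucrose, CHIL was lower by -0.28 ± 0.096 (SE) at the earlier harvest and by -0.50 ± 0.056 at the later, without overlap of arrays at either. UGT84A1 differed by -0.11 ± 0.11 with overlapping arrays at the earlier harvest and by -0.24 ± 0.071 without overlap at the later. The later effect minus the earlier one was -0.22 ± 0.11 for CHIL and -0.13 ± 0.13 for UGT84A1, the latter within its error. No test was applied to either value, and no difference between the harvests in the sucrose effect is read from them.

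From the earlier to the later harvest on GM, CHIL differed by -0.09 ± 0.093 with overlapping arrays, whereas UGT84A1 differed by -0.34 ± 0.095 without overlap. With sucrose in the medium, CHIL differed by -0.31 ± 0.061 and UGT84A1 by -0.47 ± 0.093 between the harvests, both without overlap. In the MS group against the later GM group with sucrose, CHIL was higher by 0.56 ± 0.075. UGT84A1 differed by -0.20 ± 0.063 there without overlap, but by 0.016 when each array was centred on its median, so its direction in that comparison is not settled. Median centring shifted the median of all probe sets by over 0.1 in 4 comparisons: by 0.21 in MS against the later GM group with sucrose, by -0.19 in stage on GM with sucrose, by 0.12 in MS against soil and by -0.10 in the difference of the sucrose effects. The comparisons of the members between plate groups share groups, ATGE_94, ATGE_95, ATGE_98 and ATGE_99 among them, and are not independent of each other.

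The wider pathway was read from 8 gene lists with 130 genes, of which 32 besides the members had a probe set tied to them alone and 24 of these passed the filter on low signals. Coverage was uneven: 9 of 16 flavonoid-decoration genes and 9 of 14 genes of sinapate and hydroxycinnamate esters had a named probe set, but 0 of 13 general phenylpropanoid genes and 0 of 22 flavonoid regulators. Chalcone synthase, chalcone isomerase, the fatty-acid-binding relatives of CHIL and UGT84A2 are not analysed here. Genes are said to rise or fall where limma gave an adjusted p below 0.05 over all 15284 probe sets tested.

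The comparison of soil with GM asks whether the rest of the pathway shared the members' division. In the earlier sets 14 of 24 were lower on soil and 5 were higher, where 30.4% of all probe sets tested were lower and 35.1% higher. In the later sets 16 of 24 were lower and 4 higher, where 32.9% of all were lower and 33.9% higher. The median log2 difference of the 24 genes was -0.37 in the earlier and -0.76 in the later sets, beside 0.05 and 0.00 for all probe sets tested. Of those called lower, UGT84A3 in both sets and PRX52 in the later sets were dim in both groups compared, where values have no order. UGT78D1, UGT78D2, UGT84A3 and PRX52 were dim on all soil arrays and passed the filter only through plate groups. Their place among the genes called lower on soil is therefore no result.

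UGT78D2, which attaches glucose to the 3-position of flavonols and anthocyanidins, came closest to the members. It was the only 1 of the 32 other pathway genes that was dim on all soil arrays and above the line on all plate arrays. Its signals were 22.5, 20.2 and 18.1 in ATGE_3 and 23.7, 14.99 and 14.3 in ATGE_9. In ATGE_94 they were 389.9, 353.4 and 380.6, and in ATGE_98 they were 258.2, 278.8 and 294.6. The soil and GM ranges did not overlap, and the highest soil array was at 0.910 of its 40th percentile. UGT78D2 was at least 14.2-fold lower on soil in the earlier sets and at least 11.01-fold lower in the later sets (limma adjusted p = 2.7e-18 and 5.1e-18). Like the members, UGT78D2 passed the filter on low signals only through the plate groups, so no support is drawn from these p-values.

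In the flavonoid-decoration list, 3 of 5 tested genes fell on soil in each pair of sets. Of all probe sets tested, 30.4% were lower in the earlier sets and 32.9% in the later. UGT78D1 and UGT78D2, among those that fell, passed the filter only through plate groups, so no support is drawn from their calls. AT1G06000 had a mean signal of 112 ± 7.66 in ATGE_3 against 351 ± 17.4 in ATGE_94, and of 55.8 ± 11.3 in ATGE_9 against 252 ± 13.3 in ATGE_98 (SD, n = 3). Its log2 difference was -1.65 ± 0.097 (SE) and -2.19 ± 0.097, with limma adjusted p of 7.5e-13 and 2.9e-15. Unlike the members it stayed above the line on every soil array. UGT78D1, a flavonol 3-O-rhamnosyltransferase, was dim on all soil arrays, at least 1.39-fold lower in the earlier and 1.32-fold lower in the later sets. UGT71C1 went the other way in the later sets, with 287 ± 35.4 on soil and 168 ± 21.7 on GM (0.77 on the log2 scale, limma adjusted p = 3.3e-05). BGLU15, a glucosidase acting on flavonol glycosides, was higher on soil in the earlier sets by 0.42. Its means were 242 and 241 in the later sets, a difference that did not pass the test.

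The sinapate and hydroxycinnamate list, to which UGT84A1 belongs by function, had 7 tested genes. All 7 fell on soil in the earlier sets, where 30.4% of all probe sets tested were lower. In the later sets 6 fell and 1 rose, where 32.9% of all were lower and 33.9% higher. UGT84A3, among those that fell in both, was dim in all of these groups. UGT72E1 and UGT72E2 glucosylate monolignols such as coniferyl alcohol and their aldehydes. UGT72E1 fell by 1.97 and 2.73 on the log2 scale, and UGT72E2 by 1.34 and 1.87, in the earlier and later sets. ALDH2C4, which oxidises sinapaldehyde and coniferaldehyde to the acids that enter the esters, fell from 1099 ± 55.6 on GM to 580 ± 53.7 on soil in the earlier sets. In the later sets it was 1460 ± 25.1 on GM and 550 ± 18.5 on soil. UGT72E3, of the same subfamily, was the exception, and its calls were weak. It fell by 0.30 in the earlier sets (limma adjusted p = 0.045), a call lost under 12 of 29 alternatives, the log2 difference being -0.15 without replicate 1 of ATGE_3 and -0.27 without replicate 3 of ATGE_94. It rose by 0.37 in the later sets (limma adjusted p = 0.016), a call lost without replicate 1 or 2 of ATGE_9 or replicate 2 of ATGE_98, with log2 differences of 0.31, 0.33 and 0.31.

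**Figure D3:**
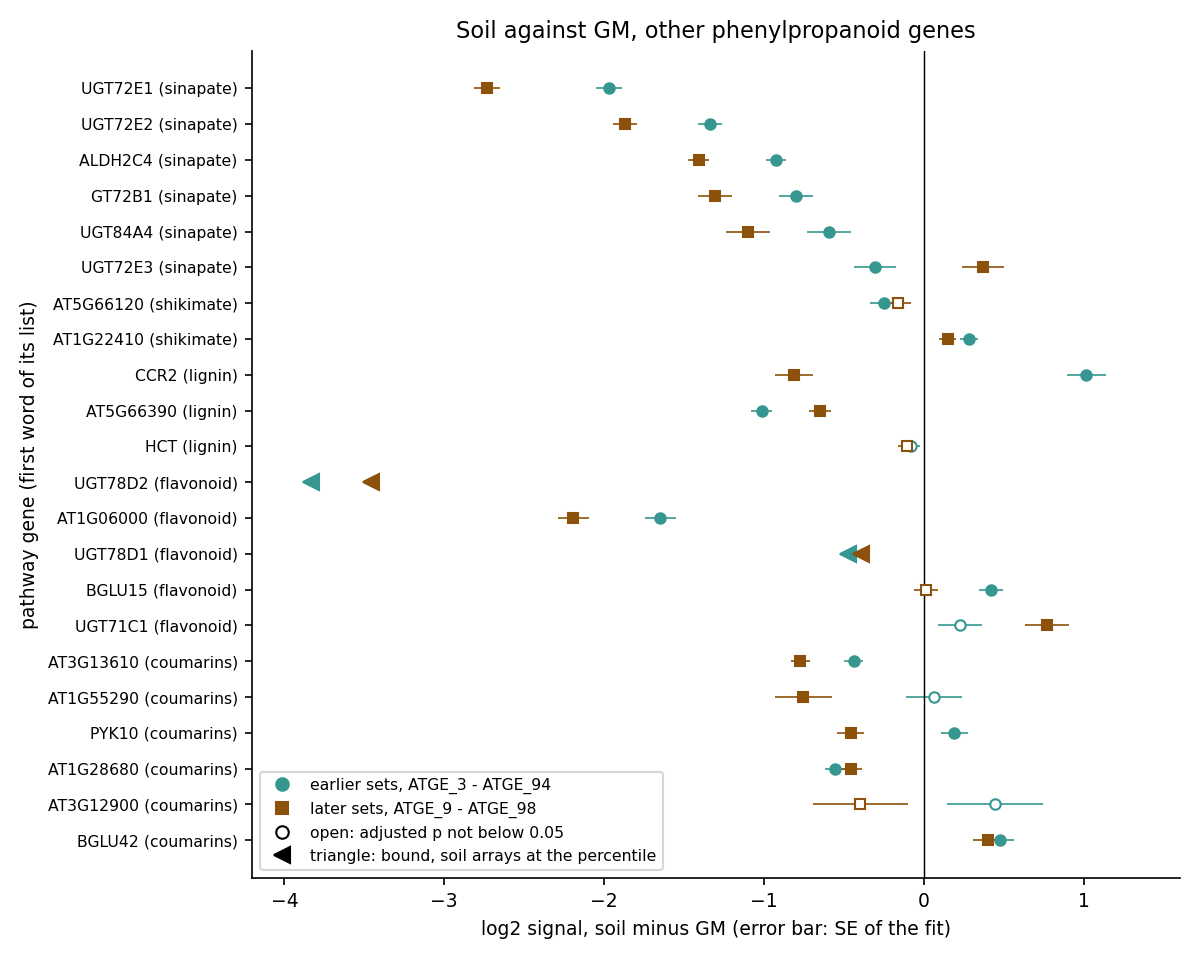
Log2 signal on soil minus GM for pathway genes (x axis), with SE of the fit as bars; circles are the earlier sets, squares the later sets, open symbols did not pass adjusted p below 0.05, and triangles are bounds where the soil arrays are dim. Genes dim in both groups of the later sets are left out; most sinapate-list genes lie left of 0, and UGT78D2 lies farthest left.

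Not all listed genes moved alike. In the lignin list, CCR2, a cinnamoyl-CoA reductase, was 115 ± 5.85 in ATGE_3 and 57.5 ± 10.7 in ATGE_94, but 78.3 ± 10.6 in ATGE_9 and 137 ± 14.1 in ATGE_98. It thus rose on soil in the earlier sets (1.01, limma adjusted p = 1.3e-07) and fell in the later ones (-0.81, limma adjusted p = 3.1e-06). HCT, which makes the shikimate esters on the way to lignin, ranged only from 693 to 916 over all 21 arrays and passed no soil-GM test. Of the 6 coumarin genes, 2 rose and 2 fell in the earlier sets, where 35.1% of all probe sets tested were higher and 30.4% lower. In the later sets 1 rose and 4 fell, where 33.9% of all were higher and 32.9% lower. The earlier counts are near the shares of all probe sets, and nothing is read from counts of so few genes. BGLU42 rose in both, by 0.47 and 0.40.

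The nearest relatives of UGT84A1 were measured too. In the order of genes in TAIR10.1, UGT84A1, UGT84A3 and UGT84A4 are consecutive on chromosome 4, and all encode glucosyltransferases of the same group that form glucose esters of hydroxycinnamates. UGT84A4 was above the line on all 21 arrays, with 48.6, 70.2 and 60.4 in ATGE_3 and 41.5, 48.1 and 35.1 in ATGE_9. On GM it was 90.2, 89.4 and 87.9 in ATGE_94 and 92.8, 82.2 and 90.3 in ATGE_98. The soil and GM arrays of UGT84A4 did not overlap, yet the difference was moderate, at -0.59 (limma adjusted p = 0.00061) and -1.10 (limma adjusted p = 2.2e-07). It was highest in ATGE_95, at 142 ± 23.3, and second in ATGE_93, at 127 ± 16.3, an order unlike that of UGT84A1.

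UGT84A3 was dim on 17 of 21 arrays. It was above the line on all arrays of ATGE_93 only, at 39.3, 41.8 and 40.7, and on 1 array of ATGE_99. UGT84A3 was therefore at its brightest in the plate group with the lowest mean signal of UGT84A1. For UGT84A1 that order against ATGE_99 did not hold under median centring. It passed the test as lower on soil in both sets (limma adjusted p = 0.0019 and 0.00091), but was dim in all 4 of those groups, so no fold is given. UGT84B1 and UGT84B2 were dim on all 21 arrays. The sequences of UGT84A copies are similar, and cross-hybridisation between their probe sets was not tested. The gene before UGT84A1, AT4G15475, had group means of 103 to 137 in all 7 groups. Next to CHIL on chromosome 5, CYP79A2 was dim on all 21 arrays.

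**Figure D4:**
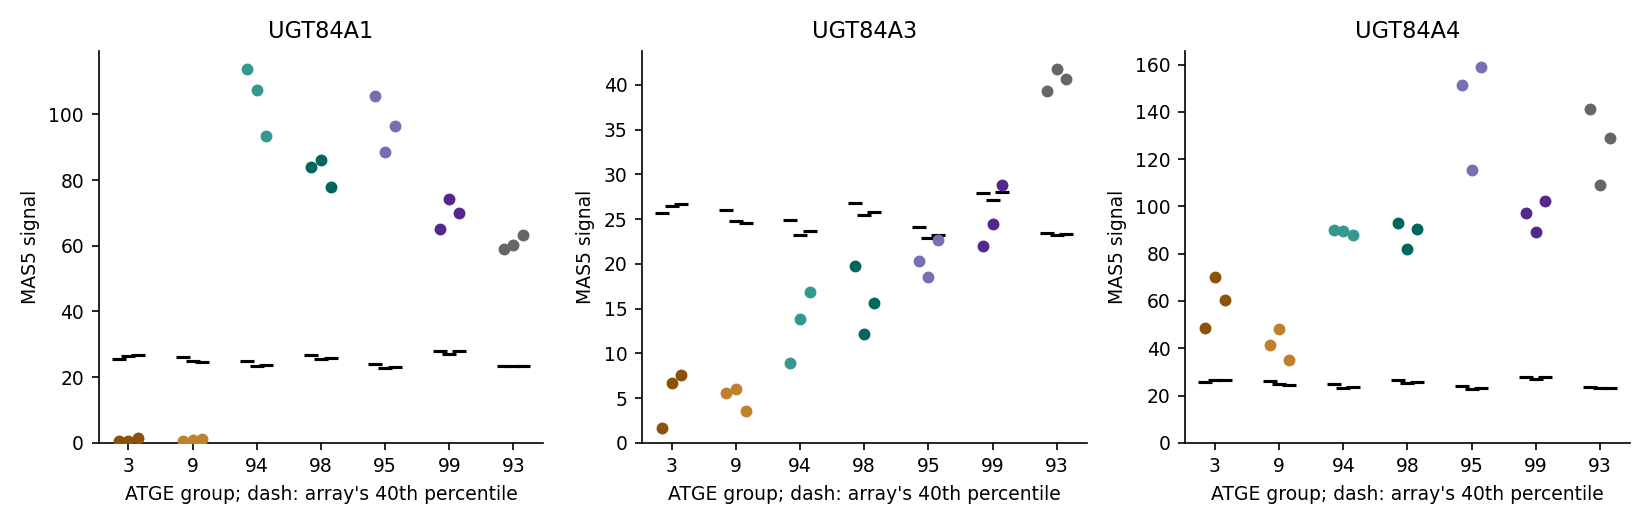
MAS5 signal (linear axis, a separate scale for each gene) of the neighbouring genes UGT84A1, UGT84A3 and UGT84A4 on each array, by ATGE group; points are arrays and dashes each array's 40th percentile. UGT84A1 is near 0 in groups 3 and 9, UGT84A3 exceeds the dashes throughout group 93 only, and UGT84A4 exceeds them in every group.

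Against later soil, the MS group gave the most uniform result for the pathway. In ATGE_93, 20 of 24 genes were higher than in ATGE_9 and 0 lower, where 26.9% of all probe sets tested were higher and 38.9% lower. All 5 tested flavonoid-decoration genes and all 7 of the sinapate list were among those higher. Of these, UGT78D1, UGT78D2 and UGT84A3 were dim on all soil arrays and passed the filter only through plate groups. UGT84A3 would not have passed it without ATGE_93, so its place among them is no result. AT1G06000 was 438 ± 32.6 in ATGE_93, 7.93-fold its ATGE_9 level, and UGT72E1 was 493 ± 21.9, 6.04-fold its ATGE_9 level. The coumarin-list gene AT3G13610 was 1333 ± 42.7 against 369 ± 10.9, or 3.61-fold. Against the later GM group with sucrose, 10 genes were higher in ATGE_93 and 5 lower (22.6% and 33.7% of all), and median centring changed that to 14 and 3. AT3G13610 was higher there too, by 0.98, and UGT72E2 was lower, by -0.46.

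With 5% sucrose, most of the listed genes that passed the test rose, whereas the mean of each member was lower at both harvests. No test was applied to the members, and for UGT84A1 the earlier difference was -0.11 ± 0.11 (SE) with overlapping arrays. At the earlier harvest 14 of 24 rose and 2 fell, where 15.2% of all probe sets tested rose and 19.2% fell. The median of the 24 was 0.30, beside -0.03 for all. At the later harvest 8 rose and 1 fell, where 12.7% of all rose and 11.9% fell, and the median was 0.15, beside 0.01. UGT72E2 rose from 475 ± 50.3 to 811 ± 28.9 at the earlier harvest and from 922 ± 30.8 to 1348 ± 57.8 at the later (0.78 and 0.55 on the log2 scale). The coumarin-list gene AT3G12900 fell at both, from 45.6 ± 3.06 to 13.6 ± 4.81 and from 36.8 ± 2.91 to 7.5 ± 3.94, and was dim on all arrays with sucrose. The lignin-list peroxidase PRX52 rose at the later harvest, from a dim 23.4 ± 1.44 to 78.5 ± 2.1, at least 3.02-fold. PRX52 was above the line only in ATGE_95 and ATGE_99 and passed the filter only through these sucrose groups. Nothing is therefore read from its rise or from its place in the counts. UGT78D2 had means of 375 and 310 at the earlier harvest and 277 and 233 at the later, without and with sucrose, and neither difference passed the test (limma adjusted p = 0.1 and 0.17). Like the members it was dim on soil, and the error of the fit, 0.127, takes in those arrays. From the arrays of the groups compared, the log2 differences were -0.27 ± 0.070 and -0.25 ± 0.058 (SE), without overlap at either harvest. For the difference between the sucrose effects, 0 of 24 were higher and 2 lower, where 7.07% of all were higher and 5.44% lower.

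Between harvests the lists divided. On GM 6 of 24 rose and 9 fell (21.3% and 20.4% of all), and on GM with sucrose 4 rose and 10 fell (27.9% and 20%), which quantile normalization changed to 7 and 9. CCR2 rose by 1.27 and 0.94 and UGT72E2 by 0.96 and 0.73 on the log2 scale, while the lignin-list gene AT5G66390 fell by 0.62 and 0.69. No tested flavonoid-decoration gene rose in either, and 3 of 5 fell in each, while UGT84A1 was lower at the later harvest on both media. On soil 2 rose and 12 fell from ATGE_3 to ATGE_9 (11.4% and 15.3% of all). AT1G06000 fell there by 1.02 and UGT72E1 by 0.81, in samples where the members were already dim.

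The later flavonoid steps that were measured gave no signal to compare. DFR, which commits flavonoids to anthocyanins and proanthocyanidins, and BAN, the anthocyanidin reductase of proanthocyanidin synthesis, were dim on all 21 arrays. So were 4 of the 9 named flavonoid-decoration genes: UGT78D3, UF3GT, AT4G14090 and AT5MAT.

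The genes most like each member were found from the 7 group means of log2 signal, each centred on its own mean, by the root mean square difference among 8331 tested probe sets with 1 gene. For UGT84A1 these were AT3G57020 (0.29), AT5G62210 (0.46), CHIL (0.55), AT3G52740 (0.63) and AT5G64120 (0.64). For CHIL they were AT3G57020 (0.37), AT3G52740 (0.46), AT5G57785 (0.49), AT5G64120 (0.52) and UGT84A1 (0.55). CHIL and UGT84A1 were chosen for the same pattern, so their place on each other's list is no result. AT3G57020 had means of 17.1 and 10.8 on soil and of 1256 to 1615 on plates. AT5G64120, a peroxidase (PRX71), had 29.6 and 30.6 on soil, above the dim line on all 6 arrays, and 928 to 1785 on plates. The measure is led by the dim soil values: with a pseudocount added before the logarithm, 0 of the 5 genes for UGT84A1 and 2 of the 5 for CHIL remained.

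**Figure D5:**
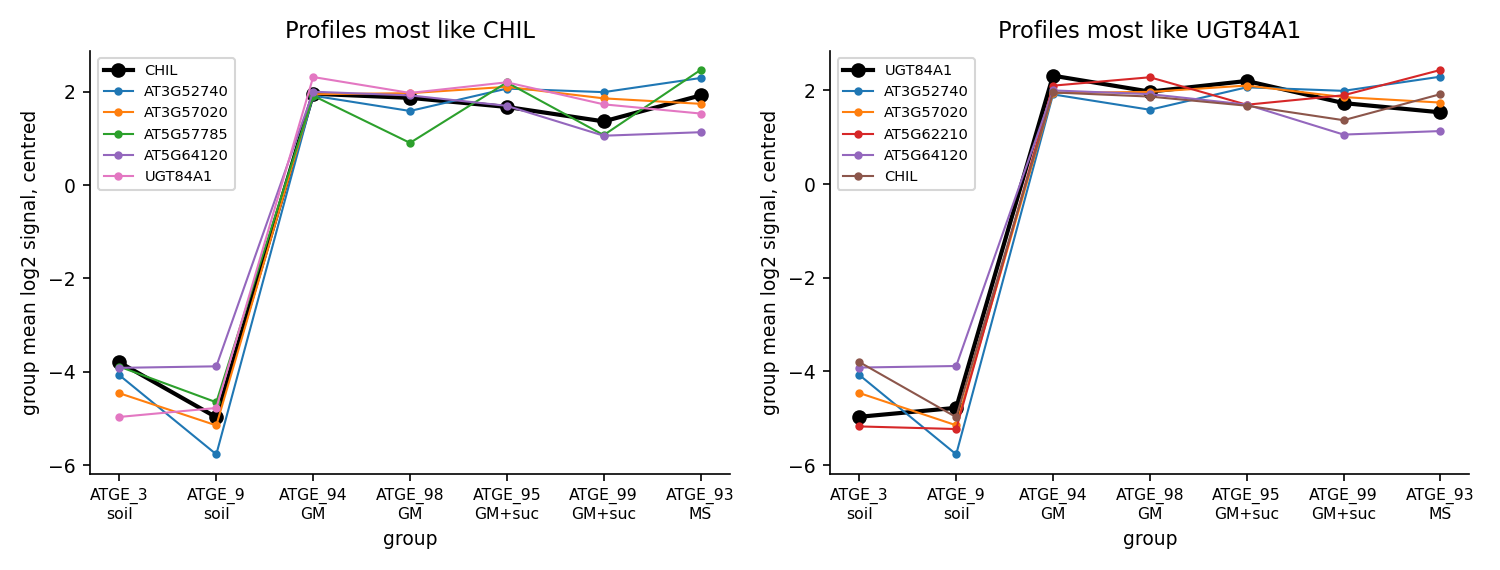
Group mean log2 signal, centred on each gene's mean over the 7 groups, for each member (black) and the 5 genes with the most similar profile. All profiles are low in the 2 soil groups and differ by less among the 5 plate groups.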

How the data were processed

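The deposited signal intensities of 21 ATH1 arrays, linear and above 0, were made by the authors with MAS5, per the submitters' processing notes, and their 2%-trimmed mean was 100.0 on each array; no further setting is given in the sources used here. The log2 of the signal was used, with no pseudocount. A probe set was tested if at least 3 of 21 signals exceeded the 40th percentile of their arrays (15284; 64 control probe sets left out). Both members passed only through the plate groups. limma 3.58.1 in R 4.3.3 (group means, empirical Bayes and an intensity trend; 14 residual degrees of freedom) was fitted to all groups, with Benjamini-Hochberg adjustment within each of 10 comparisons. The procedure was tested on simulated data. Probe sets were named from the platform annotation where it gave 1 gene (13513; 503 had several and 8730 none), with symbols from RefSeq for TAIR10.1. The members and gene lists were chosen with earlier results of these data known. Named were both members, their tested relatives, up to 3 pathway genes a direction with the smallest adjusted p per comparison, and 5 profiles most like each member; AT1G06000, UGT78D1, HCT, DFR, BAN and other genes outside this rule were named after their values were seen. Replicate letters did not pair the arrays (same-letter residual correlations of -0.077 to 0.071, median 0.007). Alternatives were quantile normalization, median centring, a pseudocount of 6.99 (the 20th percentile), a 60th-percentile filter, no intensity trend, no filter, only the groups compared, a replicate block and leaving out each array.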

Additional observations from a re-analysis of the deposited data

Results flagged for a closer look

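The sucrose effect differed between the later and earlier GM harvests for 2 of 24 pathway genes, by the limma test of the difference itself. Both were lower, where 5.44% of all probe sets tested were lower and 7.07% higher, and nothing is read from the count. For ALDH2C4 the later effect minus the earlier one was -0.37 on the log2 scale (limma adjusted p = 0.011), and for the coumarin-list glucosidase PYK10 it was -0.45 (limma adjusted p = 0.014). Under quantile normalization neither passed the test, at -0.22 (limma adjusted p = 0.1) and -0.084 (limma adjusted p = 0.4).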

How the results depend on the processing

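The number of pathway genes called for the difference of the sucrose effects was 2, and became 1 under quantile normalization and 4 under median centring; 288 other recomputed totals of called genes, both directions together, stayed within 1.5 times the reported ones. By direction, 4 higher became 7 under quantile normalization (stage on GM with sucrose), 5 lower became 3 under median centring (MS against later GM with sucrose) and 2 lower became 4 with a pseudocount (sucrose, earlier harvest). For UGT84A1, log2 differences moved by more than the replicate spread under median centring to -0.66 (stage on GM with sucrose), 0.016 (MS against later GM with sucrose) and 1.39 (MS against soil), under quantile normalization to -0.029 and 1.37 in those MS comparisons, and with a pseudocount to -1.75 and -1.48 (soil against GM, earlier and later) and 1.08 (MS against soil). For CHIL they moved under median centring to -0.50 (stage on GM with sucrose), -4.17 (soil against GM, later), 0.77 (MS against later GM with sucrose) and 4.40 (MS against soil), and with a pseudocount to -3.93, -3.90 and 3.95 (soil against GM, earlier and later, and MS against soil). Against a soil group these are bounds. No member difference or pathway count moved this far when any 1 array was left out. Of the pathway genes that the naming rule gave for a comparison, 1409 of the recomputed values kept their call and direction and 9 lost it, 7 of them for UGT72E3. From ATGE_3 to ATGE_9 its rise of 0.40 was lost when only those groups were fitted (limma adjusted p = 0.052). That rise was also lost without replicate 1 of ATGE_3 (0.25, limma adjusted p = 0.19). Leaving out replicate 1 or 2 of ATGE_9 lost it too (0.34 and 0.36, limma adjusted p = 0.11 and 0.094). The fall of UGT72E3 on soil in the earlier sets, outside that rule, was lost under 12 of 29 alternatives. With the replicate block, 17 pathway genes were called for sucrose at the earlier harvest and 18 for soil against GM at the earlier sets, where the call of UGT72E3 was lost (limma adjusted p = 0.0501); no call of a gene that the naming rule gave for its comparison was lost. Values below the 40th percentile have no order, which limits every statement on soil levels of the members.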
